A study of Rattus norvegicus with 9 samples.

Results

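The genes described here build the membrane of the red blood cell and the protein skeleton beneath it. The list held 7 genes, Slc4a1, Epb42, Rhag, Kel, Ank1, Sptb and Tmod1, listed for this role. A gene was followed where the array annotation gave it a row of its own, and 6 of the 7 had one, out of 14497 genes measured in this way. Kel, which encodes the Kell blood group peptidase, was not analysed here. Each of the 6 had a single row.

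The RNA came from liver cells of F344 rats, with 9 arrays in 3 groups of 3 that the labels call biological replicates. Adult hepatocytes were taken from rats of 5 to 6 weeks by collagenase perfusion. The other arrays held cells of embryonic day 19 livers, digested with collagenase and selected magnetically with antibodies to leucine aminopeptidase (LAP), a hepatic surface protein, and to OC.2, which the submitters call a ductal marker. One fetal group is labelled LAP+/OC.2+ and the other LAP+/OC.2- (here OC.2+ and OC.2- cells). Both fetal groups carry the same isolation text, a double positive selection. The OC.2+ samples are moreover described in brief as LAP-OC2+, and the groups used here therefore rest on titles. Nothing in the labels says whether livers were pooled. The adult group differs from the fetal groups in isolation as well as in age.

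The red cell membrane is held by a mesh of spectrin tetramers. Ankyrin fastens spectrin to the anion exchanger of the membrane, and a junctional complex of short actin filaments, adducin, tropomodulin and their partners ties the tetramers to each other. Red cell precursors switch on these genes in a programme governed by the factors GATA1 and KLF1, and before birth the liver is a main site where red cells form.

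Levels are given as log2 intensity, the array's brightness for a gene, with SD over n = 3 arrays, and differences as log2 differences or folds with 95% intervals. Adjusted p-values come from limma over all 14497 genes. The median level of these genes was 6.59 to 6.72 on every array, and replicate arrays of a group correlated at 0.989 to 0.994. All 8 hepatocyte markers had group means above those medians in adult hepatocytes, and 6 of the 8 in both fetal groups. Alb (albumin) had a level of 14.09 ± 0.09 in adult hepatocytes, 14.11 ± 0.08 in OC.2- and 13.79 ± 0.05 in OC.2+ cells, and the factor Hnf4a 10.98 ± 0.10, 9.84 ± 0.18 and 7.24 ± 0.06. The other 2, genes of mature hepatocytes, were low in the fetal groups: Tat was at 11.87, 4.96 and 5.15 and Cyp2c11 at 12.63, 4.74 and 4.95. Alb had the highest level of any gene on the adult and OC.2- arrays, 14.01 to 14.19. At the top of the range differences can be understated, so its like levels do not show equal RNA. The defining ductal markers Krt19, Krt7 and Epcam had group means of 5.62 to 6.57, below those array medians, in every group. With no detection call, a gene below the median may be at background, and its folds can be understated.

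All 6 genes had the same order of groups: lowest in adult hepatocytes, higher in OC.2- cells and highest in OC.2+ cells. For each of the 6 the arrays of the groups did not overlap, in that order, which held for 25.8% of all genes in OC.2+ over OC.2- cells, 28.2% in OC.2- cells over adult hepatocytes and 37.2% in OC.2+ cells over adult hepatocytes. All neighbours in the order differed at limma adjusted p under 0.05. Between the fetal groups 6 of the 6 were higher in the OC.2+ group, against 20.3% of all genes, with a median log2 difference of 1.85 (all genes 0.04). In OC.2- cells against adult hepatocytes 6 were higher, against 23.7% of all genes, with a median of 1.94 (all genes 0.07). Of all genes called in that comparison 53.1% were higher, or 38.1% after median centring, under which all 6 stayed higher. In OC.2+ cells against adult hepatocytes 6 were higher, against 32.0% of all genes, with a median of 3.74 (all genes 0.11). At least a 2-fold rise together with adjusted p under 0.05 was met by 6, 5 and 6 of the genes in these comparisons, and by 3.69%, 4.06% and 7.82% of all genes. The comparisons share arrays and are not independent of each other. These are whole preparations, in which fewer cells of a type and less RNA per cell cannot be told apart.

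**Figure D1:**
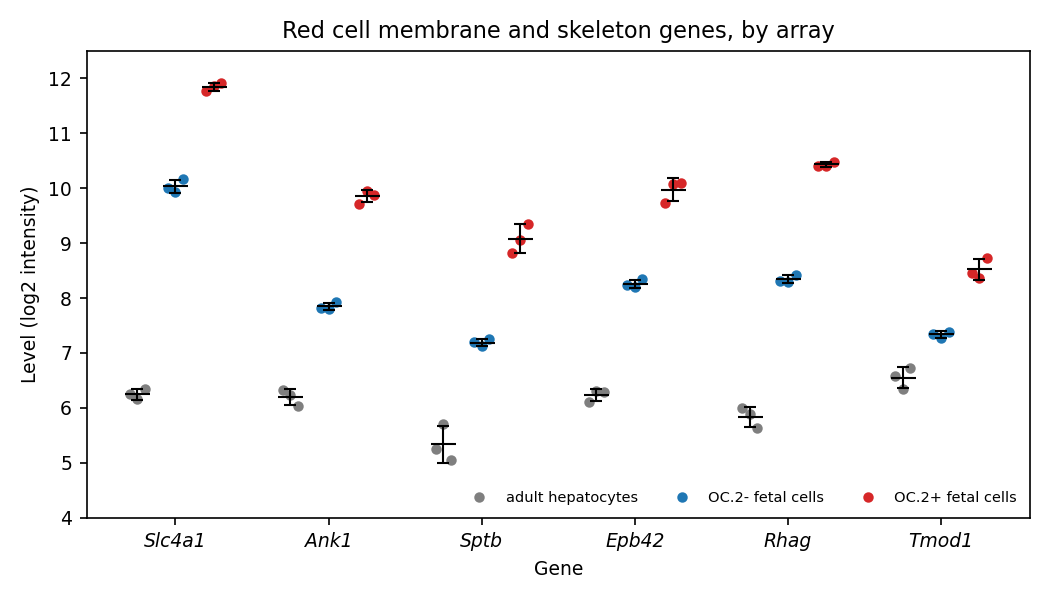
Level of each gene (log2 intensity, vertical axis) on each array; points are arrays, bars the group mean and whiskers the SD (n = 3). In each of the 6 genes the 3 OC.2+ arrays lie above the 3 OC.2- arrays, and these above the 3 adult arrays; Slc4a1 reaches 11.92 and Sptb starts at 5.05.

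The promoters of the measured genes are shown because the genes moved together and the factors named above are known to bind short motifs. The RefSeq promoter table (GRCr8) held 4 of the 6, those of Sptb, Epb42, Rhag and Tmod1. Each window runs 5′ to 3′ along the gene from 250 bases before to 50 after its start. Capitals mark letters matched on either strand by a GATA motif (AGATAA or its variant AGATAG, likewise TGATAA or its variant TGATAG), a KLF1 motif (CACACCC or its variant CACGCCC), an E-box of the kind bound by TAL1 (CAGNTG) or a TATA box (TATAAA).
Sptb promoter (chr6:101170229-101170528, - strand): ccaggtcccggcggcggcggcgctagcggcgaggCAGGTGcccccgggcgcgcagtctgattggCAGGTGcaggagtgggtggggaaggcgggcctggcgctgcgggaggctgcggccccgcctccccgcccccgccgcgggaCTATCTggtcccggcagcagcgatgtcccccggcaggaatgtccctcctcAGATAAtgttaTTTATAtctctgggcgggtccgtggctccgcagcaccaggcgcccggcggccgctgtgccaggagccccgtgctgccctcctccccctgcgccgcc
Epb42 promoter (chr3:128451634-128451933, - strand): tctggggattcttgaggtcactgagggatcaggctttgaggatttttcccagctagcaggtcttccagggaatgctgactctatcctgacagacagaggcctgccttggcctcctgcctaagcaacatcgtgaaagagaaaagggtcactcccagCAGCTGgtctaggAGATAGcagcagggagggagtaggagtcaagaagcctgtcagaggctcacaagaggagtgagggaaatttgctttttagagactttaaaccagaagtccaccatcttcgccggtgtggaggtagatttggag
Rhag promoter (chr9:27594341-27594640, - strand): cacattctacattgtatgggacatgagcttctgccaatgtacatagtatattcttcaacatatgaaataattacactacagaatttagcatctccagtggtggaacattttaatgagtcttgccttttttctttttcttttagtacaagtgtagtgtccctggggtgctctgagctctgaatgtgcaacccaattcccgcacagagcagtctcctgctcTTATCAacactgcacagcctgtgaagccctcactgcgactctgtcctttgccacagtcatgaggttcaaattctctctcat
Tmod1 promoter (chr5:65111812-65112111, + strand): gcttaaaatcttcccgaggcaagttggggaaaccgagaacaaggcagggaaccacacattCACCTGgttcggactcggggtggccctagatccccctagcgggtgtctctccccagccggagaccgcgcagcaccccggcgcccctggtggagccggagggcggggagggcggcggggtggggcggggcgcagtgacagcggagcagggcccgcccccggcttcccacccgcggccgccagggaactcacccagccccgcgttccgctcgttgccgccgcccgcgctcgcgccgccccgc

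A GATA motif was present in the windows of Sptb, Epb42 and Rhag and not in that of Tmod1, while 30.3% of all 33469 promoters of this length held one. Sptb had 2, one of them starting 57 bases before the gene start. That of Epb42 started 82 bases before the start, and its E-box 95 bases before. That of Rhag, on the opposite strand, started 31 bases before the start. None of the 4 windows held CACACCC or CACGCCC, the KLF1 sequences searched, which 13.8% of all promoters had. Other forms of a KLF1 motif were not searched. The E-box was found in Sptb (2 matches), Epb42 and Tmod1 (1 each), against 50.2% of all promoters, and the TATA box in Sptb alone, against 14.2%. A match describes letters in this window and not binding.

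Among the membrane proteins, Slc4a1 encodes the anion exchanger AE1, the most abundant protein of the red cell membrane, which swaps bicarbonate for chloride and anchors the skeleton. Its level was 6.26, 6.16 and 6.35 on the adult arrays, 10.01, 9.93 and 10.17 on the OC.2- arrays and 11.77, 11.85 and 11.92 on the OC.2+ arrays. The adult arrays lay just under the array medians and both fetal groups far above them, and the fetal groups did not overlap. Slc4a1 was 3.51-fold (95% interval 3.07 to 4.0) higher in the OC.2+ than the OC.2- group (limma adjusted p = 3.44e-09). It was 13.7-fold (95% interval 12.04 to 15.68) higher in OC.2- cells than in adult hepatocytes (adjusted p = 3.4e-12), and 48.2-fold (95% interval 42.2 to 55.0) higher in OC.2+ cells (adjusted p = 7.77e-14). The last of these ranked 14 from the top of all 14497 genes.

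Rhag, the Rh-associated glycoprotein, carries the Rh proteins to the surface and conducts ammonia and carbon dioxide. Its level was 6.00, 5.89 and 5.64 on the adult arrays, 8.31, 8.30 and 8.42 on the OC.2- arrays and 10.40, 10.40 and 10.48 on the OC.2+ arrays. Replicates were close, with SDs of 0.18, 0.07 and 0.05, and the fetal means were 2.09 log2 units apart. Rhag had the highest log2 difference of the 6 between the fetal groups, at 4.25-fold (95% interval 3.68 to 4.90, limma adjusted p = 1.96e-09). Against adult hepatocytes it was 5.65-fold higher in OC.2- cells (adjusted p = 2.76e-10) and 24.0-fold higher in OC.2+ cells (adjusted p = 4.43e-13).

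Epb42 belongs to the transglutaminase family but has no enzyme activity, and it stabilises the contact of the anion exchanger with ankyrin. Adult arrays were at 6.10, 6.31 and 6.29, OC.2- arrays at 8.24, 8.20 and 8.34, and OC.2+ arrays at 9.73, 10.08 and 10.10. The first OC.2+ array was the lowest of its group and still lay above every OC.2- array. Epb42 was 3.27-fold (95% interval 2.79 to 3.84) higher in the OC.2+ than the OC.2- group (limma adjusted p = 3.17e-08). In OC.2- cells it was 4.08-fold (adjusted p = 6.27e-09) and in OC.2+ cells 13.3-fold (adjusted p = 5.7e-12) above adult hepatocytes.

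The skeleton genes followed the same order. Ank1 encodes erythroid ankyrin, the adaptor between spectrin and the anion exchanger. Its levels were 6.33, 6.24 and 6.03 in adult hepatocytes, 7.82, 7.80 and 7.92 in OC.2- cells and 9.72, 9.94 and 9.88 in OC.2+ cells. The replicates of each group lay close together, and the groups did not overlap. Ank1 was 4.01-fold (95% interval 3.48 to 4.61) higher in the OC.2+ than the OC.2- group (limma adjusted p = 2.51e-09), and 3.13-fold higher in OC.2- cells than in adult hepatocytes (adjusted p = 1.37e-08). Between OC.2+ cells and adult hepatocytes the fold was 12.54 (adjusted p = 2.44e-12).

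Sptb encodes erythroid beta spectrin, a subunit of the spectrin tetramer. Its levels were 5.25, 5.71 and 5.05 in adult hepatocytes, 7.20, 7.12 and 7.26 in OC.2- cells and 8.82, 9.06 and 9.35 in OC.2+ cells. The SDs were 0.34, 0.07 and 0.26, so the spread lay in the adult and OC.2+ arrays. Sptb was 3.69-fold (95% interval 2.91 to 4.68) higher in the OC.2+ than the OC.2- group (limma adjusted p = 5.77e-07). It was 3.62-fold higher in OC.2- cells (adjusted p = 6.6e-07) and 13.4-fold higher in OC.2+ cells (adjusted p = 2.52e-10) than in adult hepatocytes.

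Tmod1 encodes tropomodulin, which caps the slow-growing end of the short actin filaments of the skeleton and is also used in muscle. Its arrays were at 6.58, 6.34 and 6.72 in adult hepatocytes, 7.35, 7.27 and 7.39 in OC.2- cells and 8.45, 8.37 and 8.73 in OC.2+ cells. The groups were separate but closer together than for the other genes. Tmod1 was 2.27-fold (95% interval 1.91 to 2.68) higher in the OC.2+ than the OC.2- group (limma adjusted p = 1.94e-06), an interval that ends below those of the other 5 genes. It was 1.73-fold higher in OC.2- cells (adjusted p = 7.43e-05) and 3.92-fold higher in OC.2+ cells (adjusted p = 5.55e-09) than in adult hepatocytes.

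The rise from adult hepatocytes to OC.2- cells was then set against the rise from OC.2- to OC.2+ cells within each gene, by 1 contrast in the same limma fit that was chosen after the values were seen. For Slc4a1 the first log2 difference was 3.78 and the second 1.81, and the first was larger by 1.97 ± 0.15 (SE, adjusted p = 5.28e-07). Of all genes 14.2% had a larger first difference at adjusted p under 0.05 and 17.0% a larger second one. The other 5 did not pass: Ank1 differed by -0.36 ± 0.16 (adjusted p = 0.124), Sptb by -0.03 ± 0.27 (adjusted p = 0.963), Epb42 by 0.32 ± 0.18 (adjusted p = 0.23), Rhag by 0.41 ± 0.16 (adjusted p = 0.0769) and Tmod1 by -0.39 ± 0.20 (adjusted p = 0.162). Their 95% intervals reached from -0.81 (Tmod1) to 0.77 (Rhag), so unequal rises of that size are not shown to be absent. That of Rhag, 0.06 to 0.77 and not adjusted for the number of genes, lay above 0. On the other side, that of Ank1 ran from -0.71 to an upper end that rounds to 0. Over 20 alternatives the contrast passed in 2 for Ank1 (lowest limma adjusted p = 0.0352) and 2 for Rhag (lowest 0.0152). For Tmod1 it passed in 1 (adjusted p = 0.0498). Among these, Ank1 passed without adult replicate 3 (-0.44, limma adjusted p = 0.0456) and Rhag without adult replicate 1 (0.49, adjusted p = 0.0346). The first difference starts from adult means below the array medians, where it can be understated. Those means were 5.34 (Sptb) to 6.55 (Tmod1). In OC.2- cells Slc4a1 was the brightest of the 6 at 10.03, against 7.19 (Sptb) to 8.34 (Rhag) for the others. A brighter gene has more room above such a floor. How far this sets the larger first difference of Slc4a1 was not tested.

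Some genes of the wider red cell programme had the pattern of Slc4a1. Rhd, the Rh blood group protein of the same complex as Rhag, rose by 3.85 and then by 1.75 (first larger by 2.10, adjusted p = 3.23e-06). Alas2, which starts haem synthesis in red cell precursors, rose by 3.79 and 1.72, and Hemgn, a nuclear protein of these precursors, by 4.13 and 1.51. The haemoglobin chaperone Ahsp (6.37 and 1.41) and beta globin Hbb (5.66 and 0.84) had the most unequal rises of the erythroid reference genes. In OC.2+ cells their mean levels were 12.59 and 13.6, where the brightest gene of those arrays was at 13.8 to 13.97. So near the top of the range a second difference can be understated, which was not tested. More genes of these lists went the other way. Of the 19 erythroid reference genes 5 had a larger first and 7 a larger second difference at limma adjusted p under 0.05, the latter being Gata1 (1.53 and 2.07), Gfi1b (1.15 and 2.36), Tal1, Epor, Fech, Urod and Bpgm. Of 26 other red cell membrane genes 8 had a larger first and 13 a larger second difference. The shares of all genes were 14.2% and 17.0%. Among the 8, Rhd and Tpm3 (0.83 and 0.31) rose both times. Add3 (2.99 and -1.48), Slc2a1, Bsg, Tpm1, Bcam and Abcg2 had a negative second difference. Among the 13 were Epb41 (0.65 and 1.35), Dmtn (0.79 and 1.71) and Kcnn4 (1.16 and 2.09). Others of the 13, namely Cd47, Xk, Slc29a1, Slc16a1 and Abcb6, had a negative first difference, as had Fech and Bpgm.

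**Figure D2:**
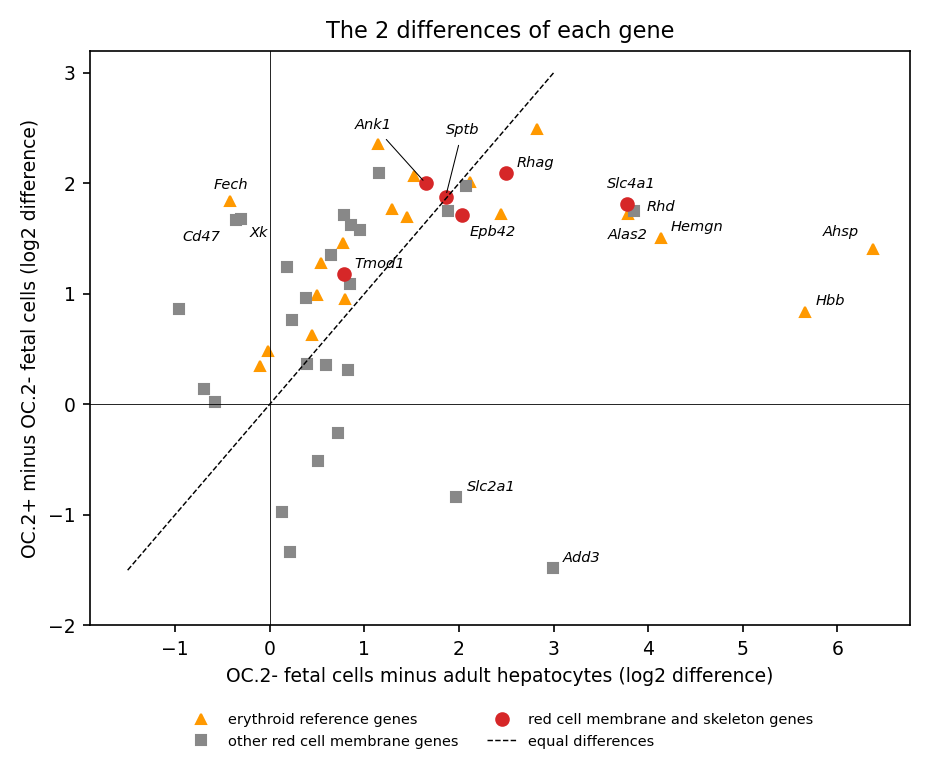
Log2 difference of OC.2- fetal cells from adult hepatocytes (horizontal) against that of OC.2+ from OC.2- fetal cells (vertical), 1 point per gene (red circles the 6 genes, grey squares other red cell membrane genes, orange triangles erythroid reference genes); the dashed line marks equal differences. Slc4a1 (3.78, 1.81) lies by Rhd and Alas2, right of the line, and Ank1, Sptb, Epb42, Rhag and Tmod1 lie near it.

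Genes of the same families were compared next, 14 of them relatives of the 6 and 5 of Kel. Of the 14, 0 were higher in OC.2+ than OC.2- fetal cells and 6 lower (limma adjusted p under 0.05), with 0 higher at an unadjusted p under 0.05. Of all 19 measured relatives 0 were higher in the OC.2+ than the OC.2- group at limma adjusted p under 0.05, and 7 were lower (all genes 20.3% and 18.2%), with a median log2 difference of -0.02. At an unadjusted p under 0.05, 1 of the 19 was higher, the Kel relative Phex (0.25), which was named after its value was seen. Rhbg, the Rh glycoprotein of non-erythroid epithelia, was at 7.46, 7.82 and 7.55 on the OC.2- arrays and 6.49, 6.22 and 6.02 on the OC.2+ arrays, 2.59-fold lower (adjusted p = 2.81e-05) where Rhag was 4.25-fold higher. The beta spectrin of most other cells, Sptbn1, was at 9.29, 9.34 and 9.07 and then 8.34, 8.37 and 8.19, 1.91-fold lower (adjusted p = 2.38e-06). Neither gene had overlapping fetal groups.

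The remaining called relatives were Ece1, Tgm2, Ank3, Tgm1 and Slc4a2. Ece1, the endothelin-converting peptidase related to Kel, was 2.35-fold lower in the OC.2+ than the OC.2- group (limma adjusted p = 3.45e-08). The tissue transglutaminase Tgm2 was 1.49-fold lower (adjusted p = 1.63e-05), and Ank3, the ankyrin of epithelia and neurons, 1.29-fold lower (adjusted p = 0.00418). Tgm1, the transglutaminase of skin, was 1.27-fold lower (adjusted p = 0.0249), and Slc4a2, the widely expressed anion exchanger, 1.19-fold lower (adjusted p = 0.0182). The relatives of Tmod1 did not pass, with log2 differences of 0.22 for Tmod2, -0.12 for Tmod3 and 0.03 for Tmod4. Many relatives were dim, and 12 of 19 missed the threshold, which does not show that they were equal.

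**Figure D3:**
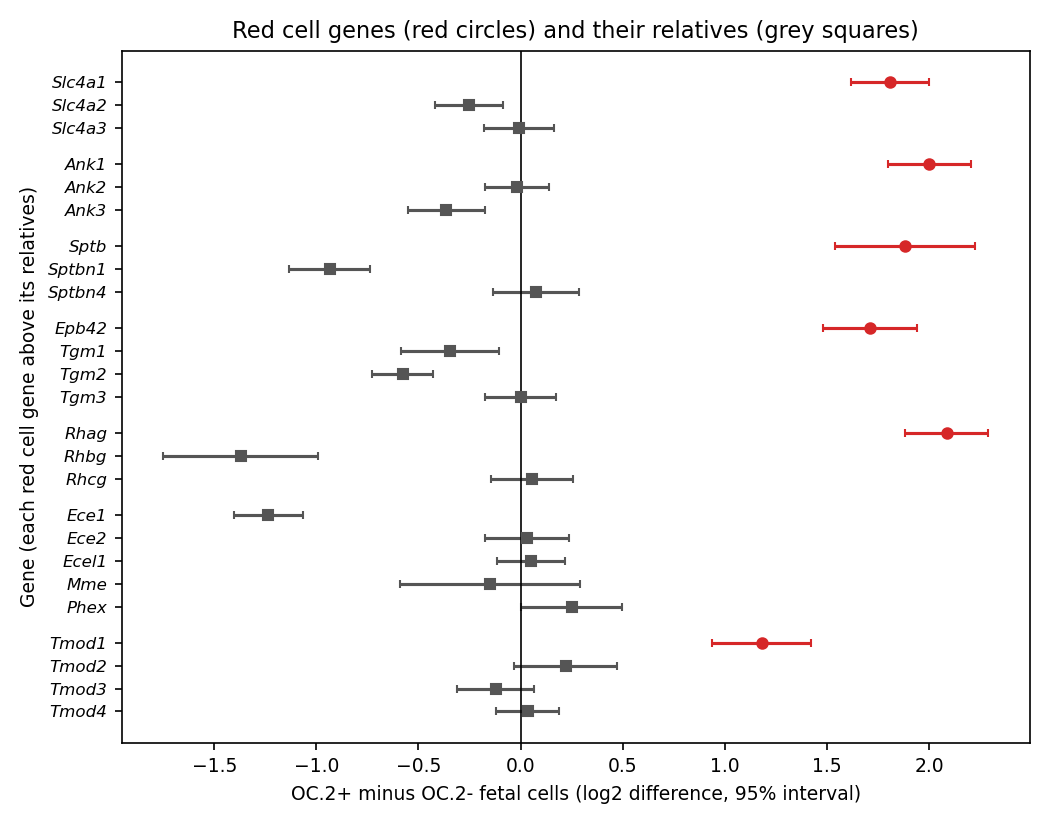
Log2 difference of OC.2+ from OC.2- fetal cells (horizontal, points with 95% intervals) for each red cell gene (red circles) and its relatives (grey squares); the relatives of Kel stand alone. The red circles lie between 1.18 and 2.09, and the grey squares between -1.37 and 0.25.

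Against adult hepatocytes the relatives were mixed. In OC.2- cells 6 of the 19 were higher and 3 lower (limma adjusted p under 0.05, all genes 23.7% and 20.9%), with a highest log2 difference of 0.78, that of Ank3. Without adult replicate 2 the number higher was 3, and after median centring it was 2. In OC.2+ cells 4 were higher and 6 lower (all genes 32.0% and 23.4%), from -1.58 for Ece1 to 0.42 for Ank3, and without OC.2+ replicate 1 the number higher was 2. Quantile normalization and cyclic loess each left 1 higher there. None reached a 2-fold rise in any comparison.

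The rest of the skeleton rose in part. Of 8 measured genes 6 were higher and 2 lower in the OC.2+ than the OC.2- group (limma adjusted p under 0.05, all genes 20.3% and 18.2%). The median log2 difference was 0.57 (all genes 0.04). The genes called lower are near the share of all genes called lower. Dmtn (dematin), which bundles actin at the junctions, was 3.28-fold higher, Add2 (beta adducin) 2.98-fold, and Epb41, which strengthens the binding of spectrin to actin, 2.54-fold. The adducins parted: Add1 (alpha), used in most cells, was 1.69-fold higher, while Add3 (gamma), the non-erythroid partner, was 2.80-fold lower (adjusted p = 9.99e-08). Add3 was at 5.68, 6.10 and 5.83 in adult hepatocytes, 8.93, 8.83 and 8.81 in OC.2- cells and 7.46, 7.38 and 7.28 in OC.2+ cells. It thus peaked in the OC.2- cells, unlike any of the 6. Tpm1 (tropomyosin) was 1.96-fold lower, and Tpm3 and Actb were 1.24-fold and 1.30-fold higher.

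Blood group and surface proteins were higher in 4 and lower in 2 of 6 measured cases in the same comparison (all genes 20.3% and 18.2%). Rhd, at 5.27, 5.59 and 5.13 in adult hepatocytes, 9.12, 9.12 and 9.29 in OC.2- cells and 10.93 ± 0.11 in OC.2+ cells, ran alongside Slc4a1. Xk, the membrane partner of the Kell protein, was 3.202-fold higher (limma adjusted p = 2.05e-09), Cd47, the signal that spares cells from phagocytosis, 3.17-fold higher and Gypc (glycophorin C), which binds the junctional complex, 2.37-fold higher. Bsg (basigin) was 2.53-fold and Bcam, the Lutheran blood group protein, 1.42-fold lower. Both are widely expressed outside blood, and Cd47, which was higher, also had a mean level of 9.31 in adult hepatocytes.

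Of 12 measured transport genes 8 were higher and 1 lower in the OC.2+ than the OC.2- group (all genes 20.3% and 18.2%). Their median log2 difference was 0.91 (all genes 0.04). Kcnn4, the calcium-gated potassium channel through which red cells lose volume, was 4.25-fold higher, and Atp2b4, a calcium pump of the red cell membrane, 3.96-fold higher. Stom (stomatin) was 3.37-fold, the urea transporter Slc14a1 3.07-fold and the stretch-gated channel Piezo1 2.13-fold higher. The glucose transporter Slc2a1 was the gene that was lower, by 1.79-fold (limma adjusted p = 2.08e-05), and like Add3 it was highest in the OC.2- cells. Slc16a1, Abcb6 and Abcg2 did not pass, at log2 differences of 0.14, 0.02 and -0.26.

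**Figure D4:**
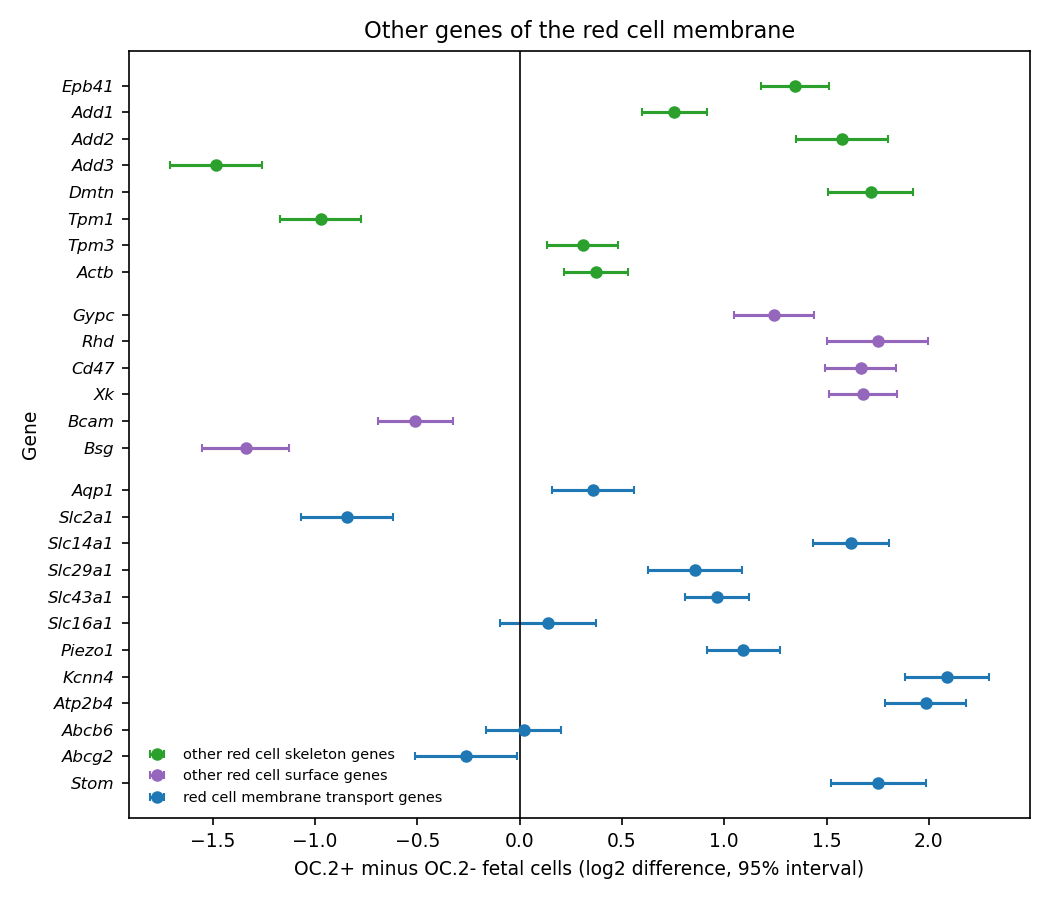
Log2 difference of OC.2+ from OC.2- fetal cells (horizontal, points with 95% intervals) for 26 other genes of the red cell membrane, coloured by role. Kcnn4 (2.09) and Atp2b4 (1.98) lie farthest to the right, and Add3 (-1.48), Bsg (-1.34) and Tpm1 (-0.97) farthest to the left.

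Over these 3 lists together, 18 of 26 genes were higher and 5 lower in the OC.2+ than the OC.2- group (all genes 20.3% and 18.2%), 18 and 5 from adult hepatocytes to the OC.2- group (all genes 23.7% and 20.9%), and 20 and 4 from adult hepatocytes to the OC.2+ group (all genes 32.0% and 23.4%). At least a 2-fold rise was met by 12, 6 and 16 of them, and by 3.69%, 4.06% and 7.82% of all genes.

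The erythroid reference genes moved with the 6. All 19 measured ones, among them factors, the erythropoietin receptor and haem enzymes, were higher in the OC.2+ than the OC.2- group (all genes 20.3%). Their median log2 difference was 1.51 (all genes 0.04). From adult hepatocytes to the OC.2- group 16 were higher and 1, the haem enzyme Fech, lower (all genes 23.7% and 20.9%). The median there was 1.29 (all genes 0.07). In OC.2+ cells against adult hepatocytes 19 were higher (all genes 32.0%), with a median of 3.15 (all genes 0.11). Centred on its own mean over the 9 arrays, the average of the 6 stood at -1.98, -1.95 and -2.05 on the adult arrays, 0.09, 0.04 and 0.19 on the OC.2- arrays and 1.75, 1.89 and 2.01 on the OC.2+ arrays. The average of the reference genes, centred likewise, stood at -1.77, -1.75 and -1.65, then 0.07, 0.09 and 0.25, then 1.59, 1.55 and 1.62. Members less reference therefore came to -0.40 to -0.20 for adult arrays, -0.06 to 0.02 for OC.2- arrays and 0.17 to 0.40 for OC.2+ arrays. This difference followed the order of the groups with no overlap. It did so too with 18 reference genes, without globin, at -0.53 to -0.33, 0.02 to 0.11 and 0.22 to 0.44. The order says only that the rises of the 6 were larger on average than those of the reference genes. The reference includes genes that rose little, such as Bpgm (0.25) and Zfpm1 (0.47) in OC.2+ cells over adult hepatocytes. Both lists were chosen with earlier results of these data known.

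Many markers of other cells also differed between the fetal groups, where 20.3% of all genes were higher in OC.2+ cells and 18.2% lower. All 7 granulocyte markers were higher in OC.2+ cells, with mean levels of 5.71 to 5.85 in the OC.2- and 10.24 to 10.27 in the OC.2+ group, and all 4 measured megakaryocyte markers were higher, at 7.05 to 7.20 and 8.29 to 8.50. Of 8 hepatocyte markers 6 were lower (10.51 to 10.61 and 8.99 to 9.16). All 4 endothelial markers (8.90 to 9.29 and 6.72 to 6.77) and all 6 stellate cell markers (8.01 to 8.21 and 6.71 to 6.81) were lower, and of 9 macrophage markers 0 were higher and 2 lower at limma adjusted p under 0.05, with 0 higher at an unadjusted p under 0.05. Of 2 lymphocyte markers 1 was higher and 0 lower. Of 4 mast cell markers 2 were higher and 2 lower (Hdc 5.69-fold and Cpa3 1.66-fold). Of 4 ductal markers 0 were higher and 1, Krt19, lower. The macrophage and ductal markers called lower are near the share of all genes called lower. The part of these other cells in the levels of the red cell genes was not tested. The granulocyte markers were at 5.46 to 5.72 in adult hepatocytes. In the OC.2- group 3 of the 7 were higher than in adult hepatocytes (all genes 23.7%), none by 2-fold.

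Across the 9 arrays the 6 genes correlated with each other at r = 0.943 (Slc4a1 with Tmod1) to 0.995 (Epb42 with Rhag). With 3 separate groups of arrays these values mostly restate the shared order of the groups. The 10 other genes most like the average of the 6, by Pearson correlation of z-scored levels over the 9 arrays, were Ptma, Iqgap1, Gtse1, Atp2b4, Pcna, B4galt6, Ccne1, Prdx2, Galnt7 and Ifrd2 (r = 0.9981 to 0.9989). Among them are the calcium pump Atp2b4, the red cell antioxidant enzyme Prdx2 and genes of DNA replication and the cell cycle (Pcna, Ccne1, Gtse1). Prdx2 had levels of 8.83 ± 0.08 in adult hepatocytes, 10.28 ± 0.10 in OC.2- and 11.81 ± 0.10 in OC.2+ cells.

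Taken singly, the closest genes were Alas2 and Hnrnpa3 for Slc4a1 (r = 0.9994 and 0.9988), Ptma and Ifrd2 for Rhag, Atp2b4 and B4galt6 for Epb42, Piezo1 and the transferrin receptor Tfrc for Ank1, Gtse1 and Pdk3 for Sptb, and the kinase Dyrk3 and Tdp1 for Tmod1 (r = 0.9983 and 0.9970). Size differed where shape was alike: Hnrnpa3 was 0.92 log2 units higher in OC.2+ cells than in adult hepatocytes, Slc4a1 5.59. Alas2 matched Slc4a1 in size as well, at 5.80 ± 0.23, 9.59 ± 0.14 and 11.31 ± 0.05 in adult hepatocytes, OC.2- and OC.2+ cells.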

How the data were processed

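The authors deposited normalized intensities on a linear scale, 1 row per probe set and 1 column per array. The submitters' processing notes list Partek 6.6 and RMA without saying what each did. Where RMA aligned the arrays, a shift common to most genes would be lost. Per the labels' protocols, 150 ng of total RNA entered an Affymetrix amplification. For build and annotation of the values: not given in the sources used here. Array numbers, 3 a group, limit the precision.

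Of 28826 rows, 15209 had 1 gene symbol, 306 several and 13311 none; entrez identifiers updated 0 symbols (GRCr8). Log2 of each deposited intensity was taken, and the row with the highest mean stood for a gene. Group means were fitted over all 9 arrays in limma 3.58.1 (R 4.3.3), with eBayes, 2-sided tests and Benjamini-Hochberg adjustment over 14497 genes. The fit was tested on simulated data, with normal noise of each gene's own spread around its group means. It recovered 97 to 99% of added log2 changes of 1 and 61 to 72% of those of 0.5. In each comparison 8 to 9 unchanged genes were called. Noise of another kind was not tested.

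Members and lists were chosen with earlier results of these data known. Named were all members, listed genes by role, the 10 genes most correlated with the members' mean and the 2 closest to each member. Alternatives covered scaling, a filter on dim genes, the row per gene, variance and weights, groups in the fit, a replicate block, thresholds and leaving out each array.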

Additional observations from a re-analysis of the deposited data

Results flagged for a closer look

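Among the genes of the red cell membrane and erythroid lists, 3 lay below adult hepatocytes in OC.2- cells and above them in OC.2+ cells, with both differences past limma's adjusted p of 0.05. The difference between the 2 fetal effects, which share the adult arrays, equals that of OC.2+ from OC.2- cells. For Cd47 it was 1.67 on the log2 scale (adjusted p = 2.89e-09), from -0.35 in OC.2- to 1.32 in OC.2+ cells. For Xk, the partner of the Kell protein, it was 1.68 (adjusted p = 2.05e-09), from -0.30 to 1.38. For Fech, the last enzyme of haem synthesis, it was 1.84 (adjusted p = 6.18e-09), from -0.42 to 1.41. None of Slc4a1, Epb42, Rhag, Ank1, Sptb and Tmod1 changed direction in this way. Their adult means were 5.34 (Sptb) to 6.55 (Tmod1), below the array medians, where a fall in OC.2- cells could hardly be seen. The adult means of Cd47, Xk and Fech were 9.31, 7.58 and 8.57, so the 2 sets are not alike in this respect.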

How the results depend on the processing

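In each comparison 19 alternatives were run. The 6 genes stayed higher at adjusted p under 0.05 in all of them, except that Tmod1 (0.79) missed an added 2-fold requirement in OC.2- cells against adult hepatocytes, which left 5. Slc4a1 ranged from 1.76 to 1.90, 3.68 to 3.91 and 5.51 to 5.81 over the alternatives, and Tmod1 from 1.07 to 1.25, 0.69 to 0.88 and 1.86 to 2.06. With the replicate number as a block all 6 stayed called in the 3 comparisons; same-numbered arrays had correlations of deviations from -0.226 to 0.106, so the numbers are not shown to pair the samples. The larger first difference of Slc4a1 (1.84 to 2.07) passed in 20 of 20 alternatives. The same contrast passed in 2, 2 and 1 of 20 for Ank1, Rhag and Tmod1. For Sptb it passed in 0, and turned from -0.025 to 0.078 under cyclic loess and ran from -0.169 to 0.16 leaving out 1 array.

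The relatives higher than adult hepatocytes in OC.2- cells numbered 6, but 2 after median centring, 2 at adjusted p under 0.01 and 0 with a 2-fold requirement, and 3 to 5 leaving out 1 array. In OC.2+ cells they numbered 4, but 1 after quantile normalization, 2 after median centring, 1 after cyclic loess, 1 of 8 with the filter on dim genes, 1 at adjusted p under 0.01 and 0 with a 2-fold requirement, and 2 to 5 leaving out 1 array. Between the fetal groups 0 were higher in the OC.2+ group, and 0 to 1 leaving out 1 array (1 without OC.2+ replicate 2). The other membrane genes higher in OC.2- cells than in adult hepatocytes fell from 18 to 6 with a 2-fold requirement. Without the globin gene in the reference, members less reference moved to -0.40 in adult and 0.05 in OC.2- cells. Where the cause of such a change is not its own construction, it was not tested. Dim adult levels limit the folds against adult hepatocytes.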
